A study of Ambystoma mexicanum with 2 samples.

Results

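The muscle microRNAs miR-133, miR-208 and miR-499 were followed in the tail of the Mexican axolotl, uninjured and after amputation. The members were all rows of the deposited count table whose family label is miR-133, miR-208 or miR-499 with at most 1 letter after it. This gave 10 of 4563 labels and 175 of 9277 mirBase entries, namely 137 entries of miR-133 to miR-133d, 12 entries of miR-208 and miR-208b and 26 entries of miR-499, miR-499a and miR-499b. mirBase catalogues microRNAs across many species, and an entry is the microRNA of 1 species, such as xtr-miR-499 of the frog Xenopus tropicalis. The control library came from mature tails that had not been injured, and the blastema library from amputated tails 3 days post injury, the blastema being the mound of undifferentiated cells from which the tail regrows. The tissue, of mixed tail cell types, was pooled from 20 mature axolotls (whether 20 for each condition or in all is not stated), and each condition was sequenced as 1 library. No spread between animals was measured and the effect of injury could not be tested. Intervals are 95% intervals for counting error only. They take reads as independent, and are too narrow where reads were copied by PCR or counted in several entries.

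MicroRNAs are cut from hairpin precursors, from which either the 5p or the 3p arm can be kept and loaded into a silencing complex, where bases near the 5′ end of the microRNA, the seed, pair with target transcripts. In mammals miR-133 genes lie beside miR-1 or miR-206 genes and are expressed with them in muscle, where miR-133 is known for its part in myoblast proliferation. Also in mammals, miR-208 and miR-499 lie in introns of myosin heavy chain genes and are known from the heart and from slow muscle fibres. In zebrafish, miR-133 is known from fin and heart regeneration.

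The deposited tables give known microRNAs by name and print letters only for sequences that did not map to mirBase. Some of these unmapped sequences were grouped by the authors into families with a partial homology to miR-133 or miR-499. They are shown here because they are the only letters given that resemble these microRNAs. Whether they come from axolotl miR-133 or miR-499 was not tested. The families amex-miR-pn5569 and amex-miR-pn2169 were also listed with a homology to miR-7645, and amex-miR-pn5788 with one to miR-1383. In the first pair, capitals mark the run of 19 bases that both sequences share, with the extra bases at either end in lower case.
amex-miR-pn5569: TGGTCCCCTTCAACCAGCTgtaa
amex-miR-pn2169: attTGGTCCCCTTCAACCAGCT
The next 2 are the sequence with the most reads of another family like miR-133, made of other letters, and the sequence against which the families like miR-499 were laid. No letters are marked in these.
amex-miR-pn5530: ggtaaaatggaaccaaatca
amex-miR-pn3654: cttaagacttgcagtgatgttta
The last set holds the sequence with the most reads of 5 further families, though in pn5665 another sequence had equally many. Capitals mark the bases that differ from pn5569 for the first and from pn3654 for the others, and their counts are given at the end.
amex-miR-pn5788: tggtccccttcCCccCgctgt
amex-miR-pn5665: tCCgacttgcagtgCtgttt
amex-miR-pn5702: tCagacttgcCgtgCtgttt
amex-miR-pn3797: GaagacttgcagAgatgGtta
amex-miR-pn3799: taagaGttgAagtgatgGtta

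miR-133 and miR-499 were lower in the blastema library, and miR-208 was rare in both. The 5 labels of miR-133 together had 26947 control reads and 6165 blastema reads. In rpm, the reads out of 1000000 reads of the deposited tables, this is 2136 (interval 2111 to 2162) and 619 (604 to 635), a log2 ratio of blastema over control of -1.79 (-1.83 to -1.75). The 3 labels of miR-499 had 30624 control reads and 11166 blastema reads. This is 2428 rpm (2401 to 2455) against 1122 (1101 to 1143), a log2 ratio of -1.11 (-1.14 to -1.08). The share of miR-133 was thus 3.45 times as large in the control and that of miR-499 was 2.16 times as large. miR-208 had 85 control reads and 74 blastema reads, or 6.74 rpm (5.45 to 8.33) and 7.44 rpm (5.92 to 9.33), and its log2 ratio of 0.14 (-0.31 to 0.59) has an interval that includes 0. Fewer muscle cells and less microRNA per muscle cell cannot be told apart in such pools.

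The share of 8 of the 10 member labels was at least 2-fold lower in the blastema (6 of 10 with known reads only as the total, against 1.55% of labels), and none was at least 2-fold higher. Among the 3090 known labels that had 10 reads or more in all, 1.84% were at least 2-fold lower and 84.3% at least 2-fold higher. The median log2 ratio was -1.22 over the 10 member labels and 2.26 over the 3090. Shares are parts of 1 total, and miR-1 alone took 52.9% of the control total and 10.7% of the blastema total, so the level of any label relative to this total depends on miR-1.

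**Figure D1:**
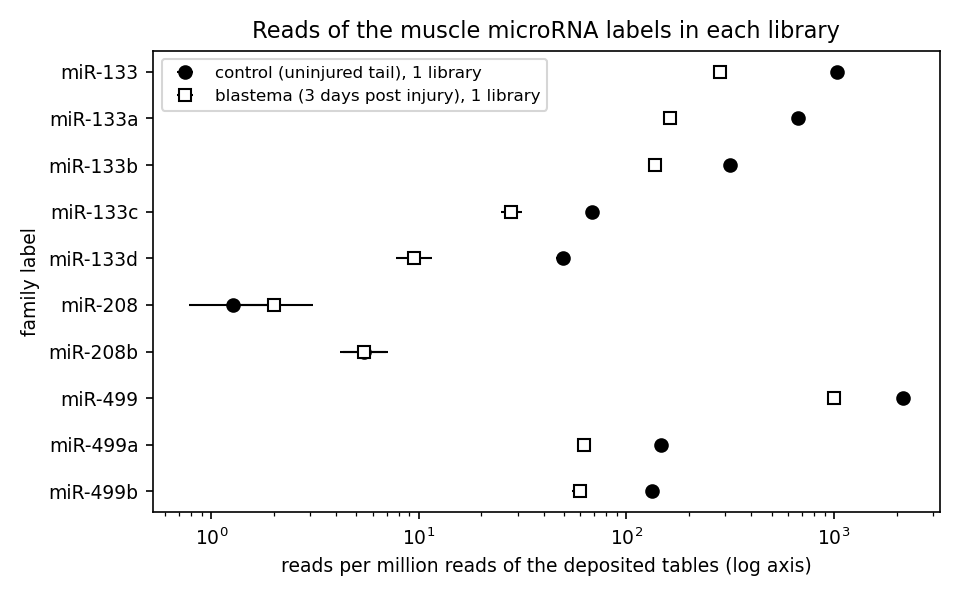
The rpm value, relative to all reads of the deposited tables (log axis), for each member label, with filled circles for the control library, open squares for the blastema library and bars for the Wilson 95% interval of the counts. The blastema lies left of the control for the 8 labels of miR-133 and miR-499, while the intervals of both libraries overlap for miR-208 and miR-208b.

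Within miR-133, the label without a letter held most reads, with 13051 control and 2811 blastema reads, or 1035 rpm (1017 to 1053) and 282 rpm (272 to 293). Its log2 ratio was -1.87 (-1.93 to -1.81). In order of reads, it was number 28 of the known control labels and number 109 of those of the blastema. miR-133a went from 8419 to 1616 reads, which are 667 rpm (653 to 682) and 162 rpm (155 to 170), at a log2 ratio of -2.04 (-2.12 to -1.96). miR-133b differed less between the libraries, from 3996 reads or 317 rpm (307 to 327) to 1367 reads or 137 rpm (130 to 144.8), at a log2 ratio of -1.21 (-1.29 to -1.12). In mammals miR-133a is the form found beside miR-1 and miR-133b the form found beside miR-206.

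The remaining labels, miR-133c and miR-133d, were rarer. miR-133d had 623 control reads and 94 blastema reads, or 49.4 rpm (45.7 to 53.4) and 9.44 rpm (7.72 to 11.6), and its log2 ratio of -2.38 (-2.69 to -2.07) was the lowest of the 10 member labels. miR-133c had 858 and 277 reads, or 68.0 rpm (63.6 to 72.7) and 27.8 rpm (24.7 to 31.3), at -1.29 (-1.48 to -1.09). The value of miR-133c rested on 1 entry, the rat rno-miR-133c, which went the other way with 16 control reads and 106 blastema reads. Without it the log2 ratio of miR-133c was -1.95.

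Ratios of labels within the same library do not depend on the total, but the labels hold unlike mixes of arms. Among control reads of entries with a named arm, 5p made up 23.9% for miR-133, 37.2% for miR-133a and 5.27% for miR-133b. For miR-133c and miR-133d it made up 28.5% and 47.9%. In 3p entries alone, the log2 ratios of miR-133 to miR-133d were -1.94, -1.82, -1.27, -1.87 and -2.08. The values that follow are over all entries. The log2 ratio of miR-133b was 0.83 above that of miR-133a (interval 0.72 to 0.95). In other words, each read of miR-133a was matched by 0.475 control reads and 0.846 blastema reads of miR-133b. Of the 10 pairs of miR-133 labels, 9 had a difference whose interval excluded 0. The exception was miR-133c against miR-133b, at -0.08 (-0.30 to 0.13). This count takes in the unlike mixes of arms, and the pairs were not computed for 3p entries alone. In 3p entries the interval of miR-133b (-1.41 to -1.13) lay above those of the other labels. These overlapped each other, at -2.08 to -1.81 for miR-133, -1.94 to -1.69 for miR-133a, -2.26 to -1.48 for miR-133c and -2.49 to -1.67 for miR-133d. Over all entries, the count also rests on the entry rno-miR-133c. Without that entry miR-133c minus miR-133b was -0.75 (-1.002 to -0.50), its differences from miR-133 at -0.08 (-0.33 to 0.16) and from miR-133a at 0.08 (-0.16 to 0.33) had intervals that include 0, and 8 of the 10 pairs excluded 0. As a part of all miR-133 reads, miR-133b went from 14.8% (14.4 to 15.3) to 22.2% (21.2 to 23.2), miR-133a went from 31.2% (30.7 to 31.8) to 26.2% (25.1 to 27.3) and miR-133d from 2.31% (2.14 to 2.50) to 1.52% (1.25 to 1.86). The labels differ little in sequence and the authors allowed 2 mismatches, so reads of 1 axolotl microRNA can be split between labels, and how reads matching several entries were counted is not given in the sources used here.

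The arms of miR-133 differed in their log2 ratios, with 5p the lower. Entries named 5p had 2826 control reads and 403 blastema reads, or 224 rpm (216 to 232) and 40.5 rpm (36.7 to 44.6), a log2 ratio of -2.47 (-2.62 to -2.32). Entries named 3p had 7325 and 1744 reads, or 581 rpm (568 to 594) and 175 rpm (167 to 184), at -1.73 (-1.80 to -1.65). The difference of 5p minus 3p was -0.74 (-0.91 to -0.57). Among the reads of entries with a named arm, 27.8% of control reads (27.0 to 28.7) and 18.8% of blastema reads (17.2 to 20.5) were 5p. Entries that name no arm held 16796 control reads and 4018 blastema reads and had a log2 ratio of -1.72 (-1.77 to -1.67), close to that of the 3p entries.

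By label, the 5p entries of miR-133a went from 1557 reads to 180 and its 3p entries from 2634 to 590, a difference of 5p minus 3p of -0.95 (-1.21 to -0.69). For miR-133b the 5p entries had 89 and 9 reads against 1600 and 523 for 3p, a difference of -1.62 (-2.60 to -0.65). Of these 5p reads, 50 and 2 were of the entry pma-miR-133b-5p, at a log2 ratio of -3.99. The difference without this entry was not computed, so how far the value of miR-133b rests on it is not known. The differences were -0.81 (-1.69 to 0.07) for miR-133c, with 117 and 14 reads for 5p against 293 and 63 for 3p, and -0.59 (-1.25 to 0.06) for miR-133d, with 278 and 34 against 302 and 56, and both intervals include 0. For the label miR-133 the difference was 0.05 (-0.23 to 0.32), an interval that also includes 0. Its 5p entries had 785 and 166 reads and its 3p entries 2496 and 512. Among these 5p entries, asu-miR-133-5p with 6 and 31 reads and lgi-miR-133-5p with 4 and 10 had a larger share in the blastema. The difference without them was not computed, so this value does not show that the arms of this label were alike. The 5p entry of this label with the most reads, bbe-miR-133-5p of a lancelet, had 302 and 55 reads. Without this entry, which was chosen after its values were seen, the 5p entries of all miR-133 labels had a log2 ratio of -2.51, and their difference from the 3p entries was -0.79 (-0.96 to -0.61).

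**Figure D2:**
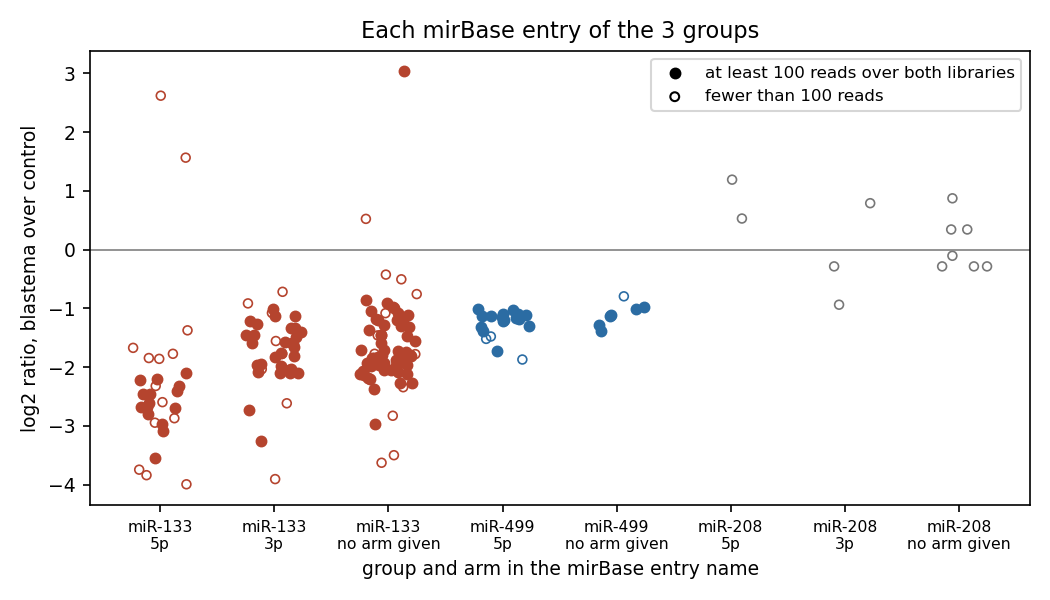
Log2 ratio of blastema over control for each of the 175 mirBase entries, by group and by the arm in the entry's name, with filled points for entries with at least 100 reads over both libraries and open points for the others. The filled points of miR-133 5p lie between -3.54 and -2.10 and those of 3p between -3.26 and -1.01, 2 open points of 5p lie above 0, the filled points of miR-499 lie between -1.72 and -0.97, and the open points of miR-208 lie on both sides of 0.

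Entry by entry, all but 4 of the 137 entries of miR-133 and all 26 of miR-499 had a smaller share in the blastema, against 9.46% of the 9277 entries of any label. Entries of near-identical sequence can share reads and are not replicates. Over the 102 entries of miR-133 with at least 100 reads, the log2 ratio ran from -3.54 to 3.03 with a median of -1.85. The medians were -2.61 for the 15 entries named 5p and -1.63 for the 30 named 3p. The 4 entries of miR-133 that were higher in the blastema were rno-miR-133c, asu-miR-133-5p of the worm Ascaris suum with 6 and 31 reads, lgi-miR-133-5p with 4 and 10 reads and sja-miR-133 with 7 and 8 reads. The intervals of the last 2 include 0.

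The miR-133 entries with the most reads were dgr-miR-133 with 942 control reads and 171 blastema reads, ssc-miR-133b with 804 and 307, and lla-miR-133a with 811 and 162. Their log2 ratios were -2.12 (-2.35 to -1.88), -1.05 (-1.24 to -0.86) and -1.98 (-2.22 to -1.74), so the entry of miR-133b was again the least lowered. The frog Xenopus, an amphibian like the axolotl, has the prefixes xla and xtr, and its entries were chosen after values were seen. xla-miR-133a had 295 and 61 reads and xtr-miR-133a had 286 and 75, at log2 ratios of -1.92 and -1.58. The frog entries of miR-133b had 157 and 54 reads and 169 and 58 reads, both at a log2 ratio of -1.19. xtr-miR-133c had 268 and 55 reads (-1.93), and xla-miR-133d and xtr-miR-133d had 22 and 3 and 21 and 1 reads. All 7 frog entries of miR-133 together gave -1.64 (-1.83 to -1.46).

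The log2 ratios of miR-499 spanned less among its labels and entries than those of miR-133, but the sets are unlike. The median entry of miR-499 had 875.5 control and 295 blastema reads, against 167 and 48 for miR-133. The named arms were 5p only in miR-499 and 5p or 3p in miR-133. The cause of the narrower span was not tested. The label miR-499 had 27092 control reads and 9951 blastema reads, or 2148 rpm (2122 to 2173) and 999.8 rpm (980 to 1020), a log2 ratio of -1.10 (-1.14 to -1.07). It was number 22 of the known control labels and number 65 of those of the blastema, and was the most abundant member label of both libraries. miR-499a went from 1852 to 623 reads, or 147 rpm (140 to 154) to 62.6 rpm (57.9 to 67.7), at -1.23 (-1.36 to -1.10), and miR-499b, 1 salmon entry, from 1680 to 592 reads, with intervals of 127 to 140 rpm and 54.9 to 64.5 rpm, at -1.16 (-1.30 to -1.03). The 3 pairs of these labels differed by at most 0.13 in either direction, and each interval includes 0. The largest was -0.13 (-0.26 to 0.01), for miR-499a minus miR-499.

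Over the 22 miR-499 entries with at least 100 reads the log2 ratio ran from -1.72 to -0.97, with a median of -1.14. The bat entry efu-miR-499 alone held 6550 control reads and 2565 blastema reads, at -1.01 (-1.08 to -0.94). It was followed by cgr-miR-499-5p with 2514 and 972 reads (-1.03) and oha-miR-499-5p with 1837 and 676 (-1.10). The frog entry xtr-miR-499 had 1582 and 635 reads, at -0.97 (-1.11 to -0.84). Each named arm of a miR-499 entry was 5p. These entries had 18260 and 6517 reads (-1.14), and those with no arm 12364 and 4649 (-1.07), so no 3p level of miR-499 can be set beside it.

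miR-208 had few reads in both libraries. In order of reads, the label miR-208 was number 631 of the known control labels and number 1316 of those of the blastema. miR-208b was number 290 and number 634. The label miR-208 had 16 control reads and 20 blastema reads, or 1.27 rpm (0.781 to 2.06) and 2.01 rpm (1.30 to 3.10), at a log2 ratio of 0.65 (-0.28 to 1.59). miR-208b had 69 and 54 reads, or 5.47 rpm (4.32 to 6.92) and 5.43 rpm (4.16 to 7.08), at -0.01 (-0.52 to 0.50). With this total, both intervals include 0, but the scaling decides this: with TMM factors miR-208 was at -1.48 (-2.42 to -0.55) and miR-208b at -2.15 (-2.66 to -1.63), and without the muscle microRNAs in the total they were at -0.74 (-1.67 to 0.20) and -1.40 (-1.91 to -0.89). Of the 12 entries, 6 were higher and 6 lower in the blastema, while 9.46% of the 9277 entries of any label had a smaller share there. No miR-208 entry had more than 16 reads in either library. The entry with the most reads was oan-miR-208-5p, of the platypus, with 14 and 16 reads. It was followed by ppy-miR-208b with 7 in each library and bta-miR-208b with 8 and 5, the same counts as in 3 further entries.

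By arm, the 5p entries of miR-208 had 16 and 20 reads and are the same entries as the label miR-208. The 3p entries, all of miR-208b, had 21 and 15 reads (-0.13, interval -1.07 to 0.81). The miR-208b entries with no arm had 48 and 39 reads, at a log2 ratio of 0.05 (-0.56 to 0.65).

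The log2 ratios of the 3 groups differed from each other, with intervals that exclude 0. The log2 ratio of miR-499 was 0.67 above that of miR-133 (interval 0.62 to 0.72). Each read of miR-133 was matched by 1.14 control reads and 1.81 blastema reads of miR-499. miR-208 was 1.93 above miR-133 (1.48 to 2.38) and 1.257 above miR-499 (0.81 to 1.71). Of the reads of all members, miR-133 held 46.7% (46.3 to 47.1) of the control and 35.4% (34.7 to 36.1) of the blastema, miR-499 53.1% (52.7 to 53.5) and 64.2% (63.4 to 64.9), and miR-208 0.147% (0.119 to 0.182) and 0.425% (0.339 to 0.533). These 3 differences are between microRNAs within the same pair of libraries and do not depend on the scaling, and how far they vary between animals was not measured. Their intervals take each read as counted once, and are too narrow if reads were counted in several entries. With the entry with the most reads of each group alone, miR-499 was 1.11 above miR-133 (0.86 to 1.35). miR-208 was then 2.64 above miR-133 (1.60 to 3.69) and 1.54 above miR-499 (0.52 to 2.56).

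The direction of each group against the rest of the library did depend on the scaling for miR-208 and not for the others. A scaling adds the same value to each log2 ratio, and the only upward shift was 0.19. The values of -1.79 for miR-133 and -1.11 for miR-499 could therefore not have changed direction, and this is no measure of how firm they are. When the total excluded the muscle microRNAs, the log2 ratios were -3.18 for miR-133, -2.51 for miR-499 and -1.25 for miR-208. With TMM factors of edgeR, which centre most labels and families near no change, they were -3.92, -3.25 and -1.99 (-2.44 to -1.55 for miR-208). With TMM all 10 member labels were at least 2-fold lower in the blastema, as were 18.1% of the 3090 known labels.

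**Figure D3:**
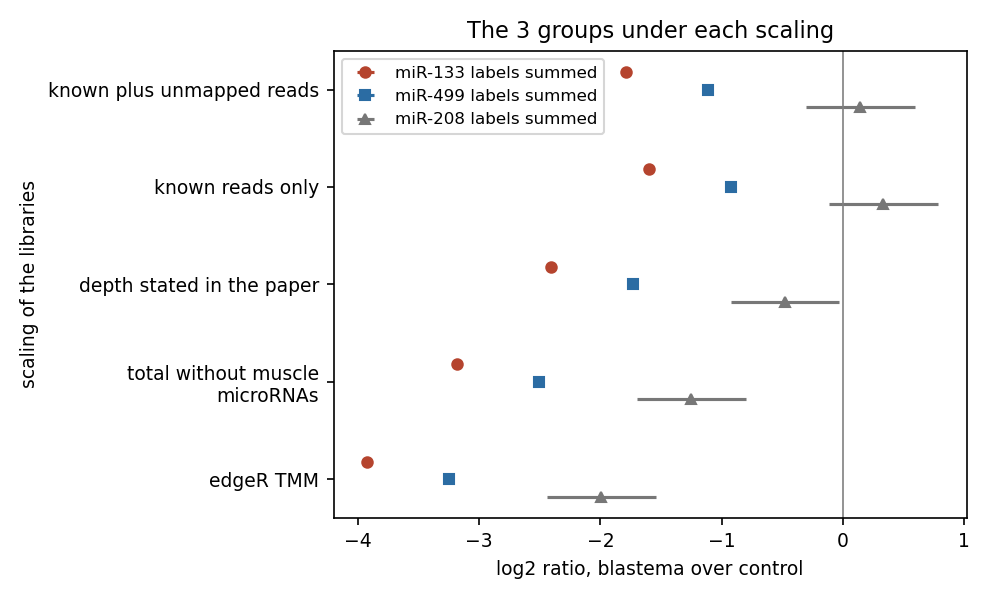
Log2 ratio of blastema over control for the summed labels of miR-133 (red circles), miR-499 (blue squares) and miR-208 (grey triangles) under 5 scalings of the libraries, with bars for the 95% counting interval where it is wider than the symbol. The spacing of the 3 groups is the same under every scaling, and miR-208 lies at 0.14 with known plus unmapped reads and at -1.99 with TMM.

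The summed labels of miR-1 and miR-206, which share muscle with these microRNAs, were lower than the summed labels of each member group. The 5 labels of miR-1 together had 6670129 control reads and 1068615 blastema reads, a log2 ratio of -2.30. The labels miR-1, miR-1a, miR-1b and miR-1c had log2 ratios of -2.31, -2.35, -2.23 and -2.25. miR-206 had 1774460 and 340687 reads, at -2.04. Set against them within the libraries, miR-133 stood 0.51 above miR-1 (0.47 to 0.55) and 0.25 above miR-206 (0.21 to 0.29) on the log2 scale. miR-499 stood 1.19 above miR-1 (1.16 to 1.22) and 0.93 above miR-206 (0.89 to 0.96), and miR-208 stood 2.44 above miR-1 (2.00 to 2.89). For summed labels the order from the lowest log2 ratio was thus miR-1, miR-206, miR-133, miR-499 and miR-208. Single labels of miR-133 did not all keep to it. Above miR-206 stood miR-133b by 0.83 (0.74 to 0.92), miR-133c by 0.75 (0.56 to 0.95) and the label miR-133 by 0.17 (0.11 to 0.23). Of these, miR-133c included the entry rno-miR-133c. The interval of miR-133a minus miR-206 included 0 (-0.08 to 0.08), while the 3p entries of miR-133a alone had a log2 ratio of -1.82 (-1.94 to -1.69). Over all its entries miR-133d was below miR-206 by a difference of -0.34 (-0.65 to -0.03), and its difference from miR-1 was -0.08 (-0.39 to 0.23). The 3p entry of miR-133d alone had a log2 ratio of -2.08 (-2.49 to -1.67), against -2.04 for miR-206. The miR-133 entry with the most reads, dgr-miR-133, differed from miR-206 by -0.08 (-0.31 to 0.16).

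The 11 listed marker microRNAs of other cell types all had a positive log2 ratio, as had 95.3% of the 3090 known labels. The highest was 4.18 for the leukocyte miR-223, with 531 and 7579 reads. The other leukocyte marker, miR-142, had 2513 and 16353 reads (3.04). For epidermis, miR-203 was at 3.36 and miR-205 at 2.57. For red blood cells, miR-451 was at 2.07 and miR-144 at 3.43. The neural miR-9 and miR-124 were at 1.39 and 1.70, miR-143 and miR-145 of smooth muscle at 2.07 and 1.81, and miR-140 of cartilage at 1.72. With TMM 5 of the 11 were above 0 (miR-223, miR-144, miR-203, miR-142 and miR-205) and 6 below 0. None of the markers was at 0 reads in either library, and their part in the values of the muscle microRNAs was not tested.

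Outside the muscle microRNAs there was no abundant label as low as miR-133 or miR-499. Of the 184 other labels that reached 1000 reads in all, 1 had a log2 ratio below 0, let-7c with 190054 and 138792 reads at -0.11, and their median was 2.26. It was the nearest to miR-133 and to miR-499, at distances of 1.67 and 1.002 on the log2 scale, followed by miR-192 with 843 and 750 reads (0.17) and miR-215 with 576 and 550 reads (0.28). The same 3 labels were nearest to miR-208, at distances of 0.03 for miR-192, 0.13 for miR-215 and 0.25 for let-7c. This likeness is over 2 libraries only.

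The authors listed 12 unmapped families of 55 sequences with a partial homology to a member, 6 like miR-133 and 6 like miR-499, and 0 like miR-208. A sequence was listed only above a number of reads, which most of these reached through the control: 41 of the 55 had 0 blastema reads. Their counts are therefore a description of what was listed, and no ratio between the libraries is drawn from them. How many of all 59811 unmapped sequences had 0 blastema reads was not counted, so this is not read as particular to these families. The families like miR-133 had 390 control reads and 56 blastema reads, and those like miR-499 had 474 and 10. In the control these are 1.45 reads for every 100 known reads of miR-133 and 1.55 for every 100 of miR-499. No such rate is given for the blastema, where most of these sequences had 0 reads. Counts of all 59811 unmapped sequences are even numbers in both libraries, which those of known entries are not. The reason is not given in the sources used here. If the unmapped counts were doubled, both control rates above are too high.

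Changes are given here with the base of the pn5569 or pn3654 sequence shown above first, and positions count from 1 at its 5′ end, without gaps. The family pn5569, from which the first sequence shown above comes, had 120 control and 46 blastema reads over 8 sequences. The shown sequence had 36 and 12 reads, and the changes in the others lie at positions 20 to 23 of it, such as A22T and A23T together in a sequence with 38 and 8 reads. The family pn2169, with bases added before the run, had 26 and 2 reads. The family pn5530, made of other letters, had 14 and 6 reads. pn3654, which is 1 sequence, had 4 reads in each library.

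Most of the other families differed from these at several positions. The shown sequence of pn5788 carries A12C, A13C and A16C, and this family had 150 control and 0 blastema reads. In pn5665, with 244 and 2 reads over 12 sequences, the shown sequence carries A4C, A5C and A17C. Another of its sequences had as many reads, 44 and 0, and carries A13C as well. In pn5702, with 38 and 0 reads, the shown sequence carries A4C, A13C and A17C. Sequences that differed by A-to-C changes alone numbered 4 like miR-133, with 138 control reads and 0 blastema reads, and 16 like miR-499, with 282 and 2, and each had at least 3 such changes.

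The remaining families carry other changes. pn3797 had 98 and 2 reads, and its shown sequence carries T3G, T15A and T20G against pn3654. pn3799 had 82 and 2 reads and carries C8G, C12A and T20G. The families pn5238, with 52 and 2 reads, and pn5444, with 28 and 0, were laid on pn5569, where their sequences with the most reads carry T1G, T4A and C8A in pn5238 and T1G and T10G in pn5444. pn5654 had 8 and 0 reads. Over the 14 sequences like miR-499 with changes other than A-to-C alone there were 188 control reads and 4 blastema reads. Over the 14 like miR-133 laid on pn5569 there were 162 and 28. The latter 14 are not only of pn5238 and pn5444, but also take in sequences of pn5569 itself and a sequence of pn5788. Apart from the 2 blastema reads of pn5238, their blastema reads were all in sequences of pn5569. The letters of the known entries to which reads did map are not shown here, so changes at fewer positions, which mapping with 2 mismatches would accept, could not be counted.

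**Figure D4:**
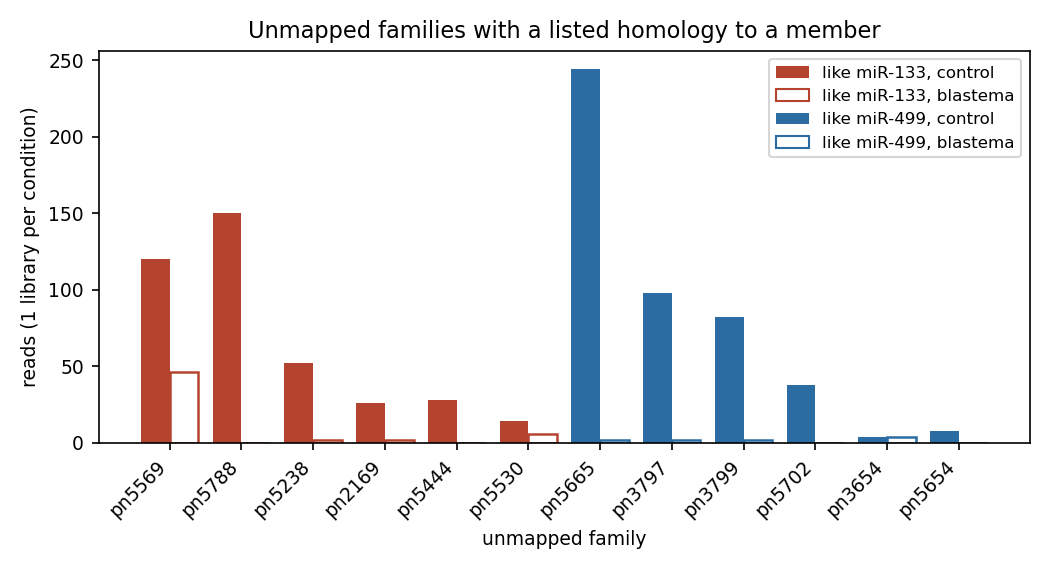
Reads of each unmapped family with a listed homology to miR-133 (red) or miR-499 (blue), with filled bars for the control library and open bars for the blastema library, from 0 upwards. The family pn5569 has 120 and 46 reads, and pn5788 and pn5665, which carry A-to-C changes, have 150 and 0 and 244 and 2. Of the 55 sequences in these families, 41 had 0 blastema reads and were listed through the control alone, so the bars of the libraries are not compared.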

How the data were processed

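Small RNA of 2 libraries was analysed, 1 control and 1 blastema. The authors trimmed adapters and low-quality ends with ShortRead, mapped reads to mirBase 21 with Bowtie 1.1.2 at up to 2 mismatches, and deposited counts without normalization, per mirBase entry and per unmapped sequence. Families of unmapped sequences were grouped by the authors at a Levenshtein distance of 4. Their normalized values and log2 fold changes were not used.

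Counts were summed by label, group and arm and divided by the total of known plus unmapped reads, 12613931 (control) and 9952885 (blastema). With 0 reads, shares up to 2.38e-05% of the control and 3.01e-05% of the blastema remain possible (3 counts). Shares have Wilson 95% intervals. Log2 ratios are of shares with 0.5 read added to each count, with Poisson intervals, and their differences use the error of all counts. No test was possible with 1 library per condition. Alternatives were 4 scalings, other added reads (5 and 0.1), minimums of reads and the entry with the most reads. Named were all members and arms, the 3 entries with the most reads per group, the muscle and cell type marker microRNAs, the 3 labels nearest to each group in log2 ratio, and the unmapped families like a member. The members and lists were chosen with earlier results of these data known. Unmapped sequences were laid without gaps at the offset with the fewest differences, those like miR-133 on the sequence with the most reads of pn5569 or pn5530, whichever was nearer, and those like miR-499 on pn3654. The calculations were tested on simulated data. TMM factors came from edgeR 4.0.16 in R 4.3.3. All else was computed with SciPy 1.17.1, NumPy 2.4.6 and pandas 2.3.3 under Python 3.11.15, and plotted in Matplotlib 3.10.9. Mature mirBase sequences and a genome were not used here.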

Additional observations from a re-analysis of the deposited data

How the results depend on the processing

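The scalings add a constant to each log2 ratio: 0.19 for known reads only, -0.62 for the depth stated in the paper, -1.39 for the total without the muscle microRNAs and -2.14 for TMM. In this order miR-133 was at -1.60, -2.41, -3.18 and -3.92, and miR-499 at -0.92, -1.73, -2.51 and -3.25. miR-208 was at 0.33, -0.48, -1.25 and -1.99, and its entries with a smaller blastema share went from 6 to 12 of 12 with TMM. The part of all entries with a smaller share under TMM was not computed. With the entry with the most reads, miR-133 was at -2.12 and miR-499 at -1.01, and the difference of miR-499 minus miR-133 was 1.11 and of miR-208 minus miR-133 2.64. With Xenopus entries only, chosen after seeing the data, miR-133 was at -1.64 and miR-499 at -0.97. Leaving out the label miR-133, miR-133a or miR-133b gave 0.60, 0.57 or 0.80 for miR-499 minus miR-133. Known labels at least 2-fold lower numbered 57, and 103 with no minimum, 18 with at least 100 reads, 558 with TMM and 236 without the muscle microRNAs, while 2605 were higher, and 444, 834 and 1442 with the last 3 of these. The number of labels counted with at least 100 reads was 518 and not 3090. The cause of the other moves was not tested, except that a scaling adds the same value to each ratio. The 13 label and arm values whose interval excluded 0 kept their direction in all 104 alternatives. The scalings could not have reversed any of them: the value nearest to 0 was -1.07, and the only upward shift was 0.19. This count is therefore no measure of how firm the values are. The 5 values of miR-208 kept their direction in 29 of 40. Adding 5 or 0.1 reads moved no group beyond its interval. The wide intervals of miR-208 come from its 85 and 74 reads. The pairs of miR-133 labels without rno-miR-133c and the markers under TMM were also chosen after seeing the data. No paired analysis was possible because there is 1 library per condition.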
